A study of Mus musculus with 15 samples.

Results

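The submandibular salivary gland of irradiated mice that were given the Shh gene (IR+Shh) was compared with that of irradiated mice given the Gli1 gene (IR+Gli1). The comparison holds 6 of the 15 RNA-seq libraries of the study, 3 in each group, chosen by their labels. All mice were adult male C57BL/6, and per the labels the genes were delivered into the gland and the irradiated glands were taken 7 days after local irradiation. The other groups, of 3 libraries each, are untreated glands (NT), glands that were irradiated only (IR), and glands that received a GFP gene after irradiation (IR+GFP), which serve as the transfer control. Each group other than NT thus shares the irradiation, and IR+Shh, IR+Gli1 and IR+GFP share the transfer into the gland. Neither the vector nor the species of the transferred Shh and Gli1 is stated in the sources used here. Whether each library comes from a different mouse is not stated either, so the p-values reflect only the spread among these samples, which may be technical.

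Shh is a secreted ligand. It binds the receptor Ptch1, which releases the membrane protein Smo from inhibition and lets Gli transcription factors act in the receiving cell. Gli1 is such a factor at the end of the pathway, and its gene is itself switched on by Hedgehog signalling, as are Ptch1 and Hhip, so their RNA serves as a readout of the pathway. In the male mouse submandibular gland, acini secrete fluid and mucin-like proteins, and granular convoluted tubules store kallikreins and growth factors.

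In each group, 2 of the 3 libraries differed by less than the sampling noise (mean chi-square per gene of 0.215 and 0.337 in the 2 pairs, against 22 to 191 in the other pairs of these groups) and were counted as 1 sample. This left n = 2 samples per group: IR+Shh 1 and 3 with IR+Shh 2, and IR+Gli1 1 and 2 with IR+Gli1 3. Where 2 values are given for a group, the combined sample comes first. Gene reads ranged from 18205941 to 38458518 over the 6 libraries. The 10 most abundant genes took 24.5% to 38.1% of the reads in IR+Gli1 and 50.6% to 52.9% in IR+Shh. Levels are therefore given in CPM, counts relative to the library size after scaling by TMM, which takes such differences in composition into account. IR+Gli1 3 stood apart from its group, as IR+GFP 3 did from its own: reads with several alignments made up 7.53% and 8.22% of these libraries against 2.89% to 4.79% in the other 13. In IR+Gli1 1 and 2 and in IR+Gli1 3, Lars2 was at 11.7 and 1900 CPM and Wfdc12 at 0.757 and 1660 CPM; both genes were picked after their values were seen. The submandibular acinar markers Aqp5 (228 and 196 CPM in IR+Shh, 137 and 191 CPM in IR+Gli1) and Bhlha15 and the tubule marker Klk1 were present in all 4 samples, while Smgc, a gene of the newborn gland, was at 0 to 0.018 CPM. Sublingual gland markers summed to 5.42 to 10.9 CPM in these 4 samples, and Dcpp1, Dcpp2, Dcpp3 and Muc19, which define that gland, were each at 0.52 CPM or less. The control samples, which also enter the fit, were less even. The markers summed to 34500 CPM in NT 2 and 3 and 9.65 CPM in NT 1, and to 196 and 13.3 CPM in IR+GFP. Their part in the control values was not tested.

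Of 14304 genes tested, 1109 (7.75%) differed between IR+Shh and the group labelled IR+Gli1: 396 (2.77%) were higher in IR+Shh and 713 (4.98%) were lower (edgeR quasi-likelihood test, Benjamini-Hochberg adjusted p under 0.05). The split depends on the scaling: per total gene reads, 85 genes were higher and 8027 lower, with the median of all genes at -0.66 on the log2 scale, against -0.02 with TMM. The calls also depend on both IR+Shh samples. Without IR+Shh 2 no gene passed (2498 had an unadjusted p under 0.05), and without IR+Shh 1 and 3 only 4 did; 226 passed without IR+Gli1 1 and 2 and 2288 without IR+Gli1 3. A fit of these 2 groups alone called 9 genes, limma-voom 931 and DESeq2 1547. Per total gene reads 171 of the 1109 genes had the opposite sign; in the other fits named here 0 did.

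**Figure D1:**
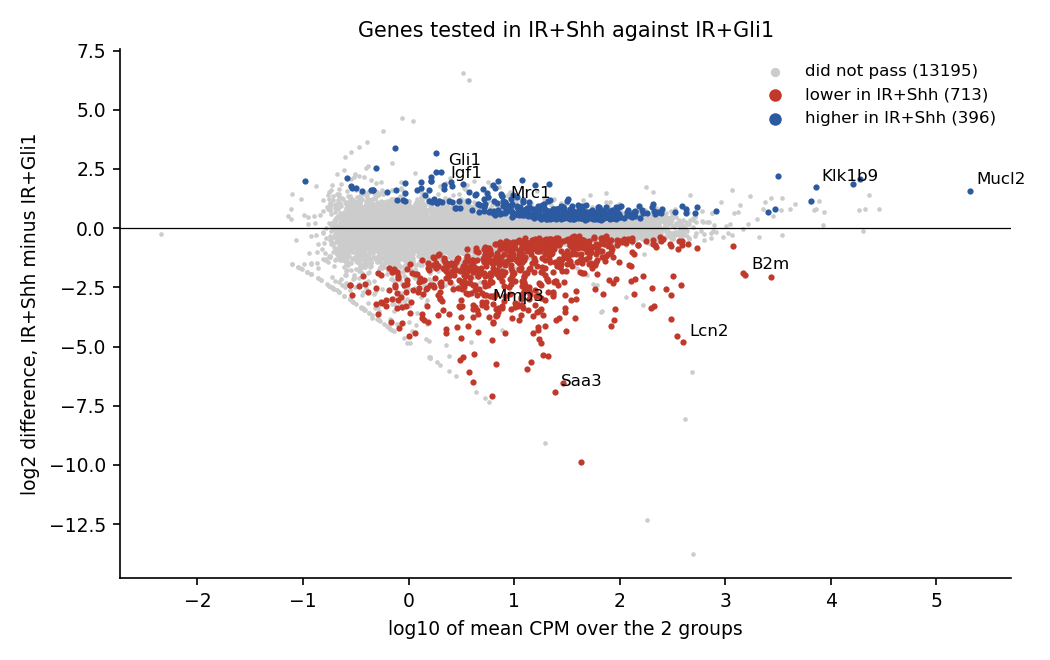
Log2 difference between IR+Shh and IR+Gli1 (vertical) against the log10 mean level in CPM (horizontal) for the 14304 genes tested; each point is a gene, with the 396 that were higher in IR+Shh in blue and the 713 that were lower in red. The lower genes reach further from 0 than the higher ones, and Mucl2 and Klk1b9 are among the most abundant genes that were higher.

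Beside the transfer control the groups differed in how many genes were called. IR+Gli1 differed from IR+GFP in 2008 genes (14% of those tested; 1191 higher, 8.33%, and 817 lower, 5.71%). IR+Shh differed from IR+GFP in 0 genes by edgeR and by limma-voom and in 34 by DESeq2, while 873 had an unadjusted p under 0.05. These 2 comparisons share the IR+GFP samples with each other and the transfer samples with the direct comparison, so they are set beside it only as values. For each gene, both samples of a group can also be placed against the range of the 4 IR and IR+GFP samples. Among the 713 genes lower in IR+Shh, both IR+Gli1 samples lay above that range for 705 (98.9%), and both IR+Shh samples lay above it for 263 (36.9%), within it for 185 (25.9%) and below it for 42 (5.89%). Among the 396 higher genes, both IR+Gli1 samples lay below the range for 376 (94.9%), and both IR+Shh samples lay above it for 64 (16.2%), within it for 105 (26.5%) and below it for 85 (21.5%). Over all genes tested, both IR+Gli1 samples lay above the range for 23.4% and below it for 22.3%, and both IR+Shh samples for 12.4% and 11.2%.

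**Figure D2:**
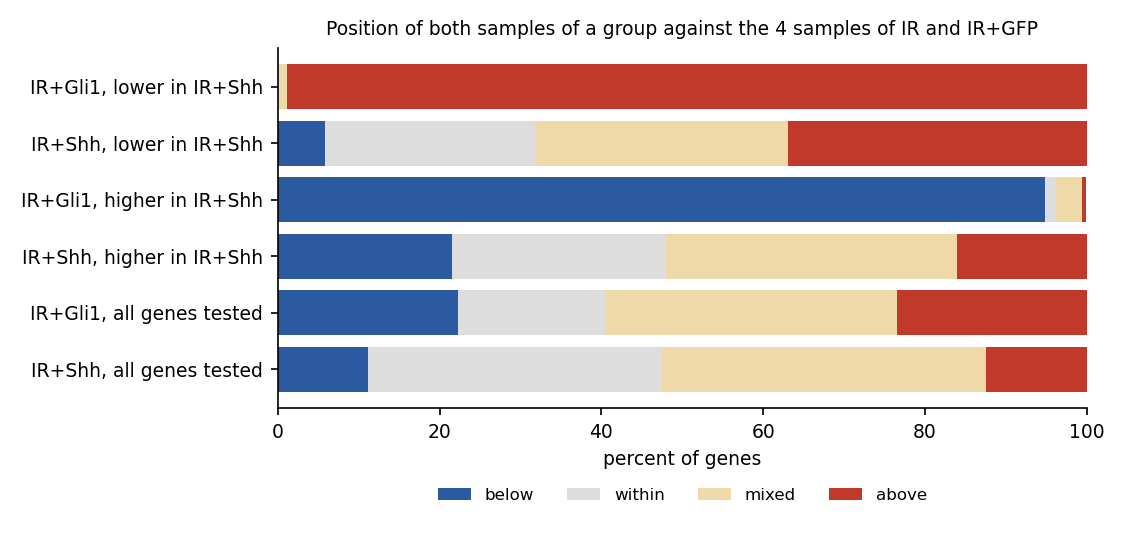
Stacked bars of the percent of genes (horizontal) for which both samples of IR+Gli1 or of IR+Shh lay below, within or above the range of the 4 IR and IR+GFP samples, or in mixed positions. Among genes lower in IR+Shh, IR+Gli1 lay above the range for 98.9%, and among genes higher in IR+Shh it lay below for 94.9%.

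Gli1 (ENSMUSG00000025407, chromosome 10, 127329882 to 127341974, GRCm38) checks the labels, and it was high in IR+Shh and not in IR+Gli1. The libraries IR+Shh 1, 2 and 3 held 77, 115 and 48 Gli1 reads. The libraries labelled IR+Gli1 1, 2 and 3 held 37, 24 and 17, in libraries of comparable depth. Gli1 was at 2.73 and 4.24 CPM in IR+Shh, 0.558 and 0.672 CPM in IR+Gli1, and 0.809 and 0.554 CPM in IR+GFP. It was thus 5.67-fold higher in IR+Shh than in IR+Gli1 (log2 2.39 ± 0.32, adjusted p = 0.00859, n = 2 per group by edgeR), and the IR+Gli1 samples lay within the range of IR+GFP. Per total gene reads the IR+Gli1 samples stood at 0.959 and 0.879 CPM, above the 0.467 to 0.701 of NT, IR and IR+GFP and below the 2.57 and 4.22 of IR+Shh. Gli1 did not pass without IR+Shh 2 (adjusted p = 0.112), without IR+Shh 1 and 3 (adjusted p = 0.0528) or with these 2 groups fitted alone (adjusted p = 0.0668). For Shh itself (ENSMUSG00000002633, chromosome 5, 28456815 to 28467256) the count was 0 in each of the 15 libraries; a count of 0 allows a level of up to 0.165 CPM of gene reads in IR+Shh 3, the shallowest. These are reads assigned to the mouse genes, so RNA of a gene from another species may not be counted; whether that applies here, or whether labels were exchanged, was not tested. The libraries labelled IR+Gli1 had no excess of counted Gli1 reads over IR+GFP with TMM scaling, and every direction given here is between the groups as labelled.

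Gli1 was the 1 gene of 17 measured Hedgehog pathway and target genes that passed, where 2.77% of all genes were higher and 4.98% lower. Of the 17, 0 were lower, and the median log2 was 0.20 beside -0.02 over all genes with TMM. Per total gene reads 2 of the 17 were higher and 6 lower, and the median was -0.44 beside -0.66 over all genes. Ptch1, the main receptor and a target, was at 11.3 and 12.7 CPM in IR+Shh and 7.66 and 10.2 CPM in IR+Gli1 (log2 0.43 ± 0.20, adjusted p = 0.205). The IR+Shh samples of Ptch1 were the higher ones without overlap, as they were for 28.7% of all genes tested, and Ptch1 did not pass. The coreceptor genes Boc (log2 -0.43 ± 0.12, adjusted p = 0.0544), Cdon (0.27 ± 0.18) and Gas1 (-0.40 ± 0.36) did not pass; per total gene reads the values of Ptch1, Cdon, Smo, Gli2, Disp1, Igfbp6 and Rab34 were below 0. Nor did the signal transducer Smo (0.20 ± 0.13), the inhibitor Sufu (-0.18 ± 0.11), the factors Gli2 (0.26 ± 0.35) and Gli3 (-0.20 ± 0.38), the ligand exporter Disp1 (0.28 ± 0.20) or the ligand-modifying enzyme Hhat (-0.21 ± 0.23). Among the other members at 0.5 CPM or more, log2 differences ran from -0.71 for Osr1 to 0.81 for Cntfr. The inhibitor Hhip was among the 9 of 26 members with too few reads to test.

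The other marker genes of the comparison, Mmp3 and Mrc1, moved in opposite directions. Mmp3, which encodes the matrix-degrading protease stromelysin, was at 0.996 and 0.886 CPM in IR+Shh, 1.62 and 1.66 CPM in IR+GFP, but 11.1 and 8.86 CPM in IR+Gli1. It was 10.6-fold lower in IR+Shh than in IR+Gli1 (log2 -3.32 ± 0.24, adjusted p = 0.0018), and of the 17 other fits only that without IR+Shh 2 did not pass it (adjusted p = 0.0684). Both IR+Shh samples were below, and both IR+Gli1 samples above, the 8 others. Mrc1, which encodes the mannose receptor CD206 of tissue-resident macrophages, was at 9.18 and 12.1 CPM in IR+Shh and 4.67 and 5.89 CPM in IR+Gli1, a 2.02-fold difference (log2 1.01 ± 0.21, adjusted p = 0.0247). The IR samples, at 8.38 and 9.80 CPM, overlapped those of IR+Shh. Mrc1 did not pass per total gene reads (log2 0.39, adjusted p = 0.166), with these 2 groups fitted alone (adjusted p = 0.0892), without IR+Shh 2 (adjusted p = 0.176), without IR+Shh 1 and 3 (adjusted p = 0.119) or without IR+Gli1 1 and 2 (adjusted p = 0.136).

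**Figure D3:**
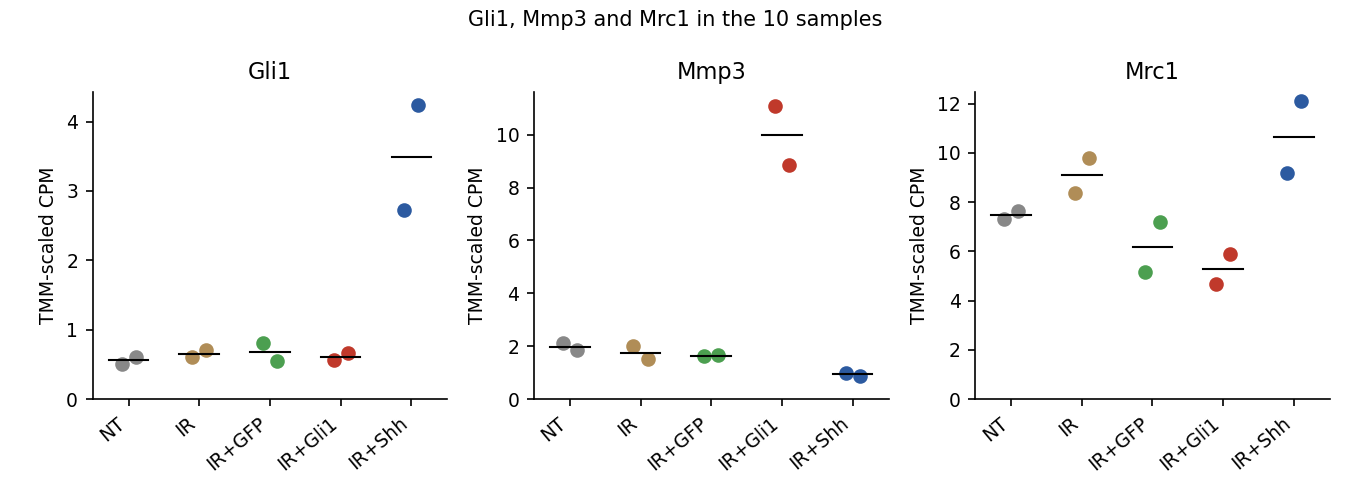
TMM-scaled CPM (vertical, linear from 0) of Gli1, Mmp3 and Mrc1 in the 2 samples of each of the 5 groups; points are samples and lines are group means. Gli1 is high in both IR+Shh samples (2.73 and 4.24 CPM), Mmp3 in both IR+Gli1 samples (11.1 and 8.86 CPM), and Mrc1 overlaps between IR+Shh and IR.

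Interferon-induced genes were lower in IR+Shh almost throughout. Of 37 measured interferon response genes, 35 were lower in IR+Shh than in IR+Gli1, 0 were higher and 2 did not pass, where 4.98% of all genes were lower; their median log2 was -2.97. Of 15 interferon-inducible GTPases, which restrict pathogens inside cells, 14 were lower (median log2 -3.39). Per total gene reads all 37 and all 15 were lower. The transcription factor Stat2 was at 30.5 and 26.7 CPM in IR+Shh, 21.3 and 20.8 CPM in IR+GFP, but 91.4 and 67.1 CPM in IR+Gli1. It was 2.77-fold lower in IR+Shh than in IR+Gli1 (log2 -1.47 ± 0.16, adjusted p = 0.00535), with IR+Shh still above each of the 6 NT, IR and IR+GFP samples. Also lower were the RNA sensor Ddx58, 2.87-fold (-1.52 ± 0.16), its relative Dhx58, 5.23-fold (-2.38 ± 0.24), and Ifi35, 3.65-fold (-1.87 ± 0.19). Among the GTPases, Irgm2 was 6.25-fold lower (-2.64 ± 0.31), Gbp7 5-fold (-2.31 ± 0.28), Gbp4 18.7-fold (-4.19 ± 0.44), Gbp9 9.60-fold (-3.22 ± 0.38) and Tgtp1 17.6-fold (-4.01 ± 0.53). Against IR+GFP, 36 of the 37 interferon genes were higher in IR+Gli1 (median log2 3.87) and 0 passed in IR+Shh (median log2 0.78). The whole list summed to 630 and 422 CPM in IR+Shh, 3550 and 2000 CPM in IR+Gli1, and 234 to 320 CPM in the 6 samples of NT, IR and IR+GFP, so that IR+Shh lay between.

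Many promoters of these genes hold a sequence element of interferon-induced genes. Both lists were drawn up of such genes, so the share of the element in them is no independent evidence. The lower genes counted below include members of both lists. The interferon-stimulated response element (ISRE) is bound by STAT and IRF proteins. Its core GAAANNGAAA was searched on both strands in RefSeq promoter windows (GRCm38.p6), which run from 250 bases before to 50 after the start of a gene. It was present in 9 of the 10 GTPase genes that have an entry (90%) and in 15 of 27 interferon response genes (55.6%). Among all genes that were lower in IR+Shh it was present in 87 of 552 (15.8%), among those higher in 6 of 310 (1.94%), and among all 27025 genes with an entry in 3.99%. Shown here are the windows of 3 GTPase genes, for the position of the core near the start, and of B2m, which holds both the core and a kB site, the element of NF-kB proteins, searched as GGGNNTTTCC on both strands. The capitals mark these matches on the gene's strand.
Irgm2, chr11:58214727-58215026, plus strand: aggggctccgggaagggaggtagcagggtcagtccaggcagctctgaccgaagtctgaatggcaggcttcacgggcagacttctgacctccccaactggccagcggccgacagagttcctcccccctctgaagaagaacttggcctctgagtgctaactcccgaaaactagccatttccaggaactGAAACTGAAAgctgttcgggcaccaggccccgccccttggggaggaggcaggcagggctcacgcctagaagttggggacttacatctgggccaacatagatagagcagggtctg
Gbp7, chr3:142530086-142530385, plus strand: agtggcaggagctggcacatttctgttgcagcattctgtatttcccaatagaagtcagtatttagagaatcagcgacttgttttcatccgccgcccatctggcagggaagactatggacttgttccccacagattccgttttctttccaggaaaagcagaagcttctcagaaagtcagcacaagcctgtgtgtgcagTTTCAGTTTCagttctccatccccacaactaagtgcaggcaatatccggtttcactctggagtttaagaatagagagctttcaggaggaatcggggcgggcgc
Tgtp1, chr11:48992197-48992496, minus strand: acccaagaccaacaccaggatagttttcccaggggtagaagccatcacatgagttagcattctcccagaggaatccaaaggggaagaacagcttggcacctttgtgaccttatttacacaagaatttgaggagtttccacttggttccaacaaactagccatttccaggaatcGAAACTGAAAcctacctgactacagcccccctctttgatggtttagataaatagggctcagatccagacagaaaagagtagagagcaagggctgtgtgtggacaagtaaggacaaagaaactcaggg
B2m, chr2:122147437-122147736, plus strand: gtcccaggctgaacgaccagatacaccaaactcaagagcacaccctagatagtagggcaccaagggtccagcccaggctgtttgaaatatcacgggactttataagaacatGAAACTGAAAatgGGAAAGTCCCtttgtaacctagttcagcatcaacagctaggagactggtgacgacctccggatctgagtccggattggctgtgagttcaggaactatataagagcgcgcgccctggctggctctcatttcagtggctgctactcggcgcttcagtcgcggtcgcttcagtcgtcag
The core starts at position -64 from the start of Irgm2, -53 of Gbp7, -77 of Tgtp1 and -139 of B2m, where the kB site starts at -126. The kB letters were present in 4.89% of the lower genes (27 of 552), 1.61% of the higher genes and 1.89% of all genes with an entry. They were present in 6 of 18 genes of NF-kB feedback, cytokines and adhesion (33.3%). The window of the neutrophil attractant Cxcl1 holds a pair of them in capitals. Cxcl1 had 125 reads in IR+Gli1 and 1 in IR+Shh, a ratio of 77.6 with a 95% counting interval of 13.7 to 3090. Such counts add the samples of a group, with the combined sample entered as the rounded mean of its libraries.
Cxcl1, chr5:90890995-90891294, plus strand: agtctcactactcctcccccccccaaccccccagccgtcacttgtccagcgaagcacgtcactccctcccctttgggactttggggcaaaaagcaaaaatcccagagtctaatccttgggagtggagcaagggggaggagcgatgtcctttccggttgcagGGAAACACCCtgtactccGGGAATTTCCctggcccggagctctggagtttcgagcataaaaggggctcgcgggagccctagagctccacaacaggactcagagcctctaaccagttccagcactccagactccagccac
The GLI binding letters GACCACCCA were found in 0.289% of all windows, in 0 of the 552 lower genes and in 2 of the 310 higher genes, Arl5b and Magi3, both named after their values were seen. A match is a string of letters and not a measured binding site.

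Antigen presentation genes were lower as well. Of 23 genes of the MHC class I pathway, 20 were lower in IR+Shh and 0 higher (median log2 -2.07), where 4.98% of all genes were lower. The shared light chain gene of class I molecules, B2m, was at 2750 and 2150 CPM in IR+Gli1 and 666 and 589 CPM in IR+Shh, a 3.91-fold difference (log2 -1.97 ± 0.26, adjusted p = 0.00859). The 4 IR and IR+GFP samples lay at 234 to 485 CPM, below both groups. The heavy chain gene H2-D1 was 3.74-fold lower (-1.90 ± 0.25), H2-T22 4.47-fold (-2.16 ± 0.25), the peptide transporter Tap1 4.58-fold (-2.19 ± 0.27) and the loading factor Tapbp 4.39-fold (-2.13 ± 0.22). Of 11 class II genes 4 were lower (median log2 -0.88): H2-Ab1, H2-DMb1, and the lysosomal processing genes Ctss and Ifi30, by 2.15-fold to 2.65-fold.

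Of 23 chemokines, 13 were lower in IR+Shh, 1 was higher and 9 did not pass (median log2 -2.64). Over all genes, 4.98% were lower and 2.77% higher. Ccl2, which attracts monocytes, was at 43.2 and 8.78 CPM in IR+Gli1 and 0.390 and 0.332 CPM in IR+Shh, a 72.0-fold difference (log2 -5.93 ± 0.83, adjusted p = 0.0154), and at 0.341 and 0.308 CPM in IR+GFP. Its relative Ccl7 was 55.9-fold lower (-5.65 ± 0.93) and Cxcl9, an interferon-gamma target that attracts T cells, 26.8-fold (-4.69 ± 0.73). Ccl6 (-2.64 ± 0.41) and the membrane-bound Cx3cl1 (-0.83 ± 0.15) were lower too. The 1 higher member was Cxcl14, named after its values were seen, at 39.2 and 35.4 CPM in IR+Shh and 15.9 and 24.6 CPM in IR+Gli1 (log2 0.89 ± 0.18, adjusted p = 0.0217). Of 9 chemokine receptors, 2 were lower, among them Ccr2 (3.54-fold).

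Of 24 genes of NF-kB feedback, cytokines and adhesion, 12 were lower and 1 higher (median log2 -1.30), where 4.98% of all genes were lower and 2.77% higher. Nfkbia, the inhibitor that NF-kB itself induces, was at 95.2 and 80.2 CPM in IR+Gli1 and 33.6 and 35.1 CPM in IR+Shh (log2 -1.35 ± 0.12, adjusted p = 0.00404). Vcam1, the endothelial adhesion molecule, was 3.72-fold lower, Relb 2.58-fold and Tnf 17.9-fold. The member that was higher was Il15, the cytokine that sustains NK cells, at 26.4 and 24.0 CPM in IR+Shh and 13.8 and 16.0 CPM in IR+Gli1 (log2 0.76 ± 0.13, adjusted p = 0.0156). Both IR+Shh samples exceeded the 8 others, and the difference did not pass per total gene reads (log2 0.12, adjusted p = 0.555). Of 17 complement genes 8 were lower, among them C1ra (4.46-fold), C1s1 (3.68-fold), C5ar1 (4.75-fold), Serping1 (2.48-fold) and C1qc (1.71-fold).

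The largest falls were in genes that were close to silent in IR+Shh. Ltf, which encodes the iron-binding antimicrobial protein lactoferrin, had 8678 reads in IR+Gli1 (143 and 29.7 CPM) and 1 in IR+Shh, a ratio of 5390 with a 95% counting interval of 967 to 213000. The protease inhibitor Slpi had 1112 reads and 1 (ratio 691, interval 124 to 27300), Acod1, which makes itaconate in activated macrophages, 856 and 1 (532, interval 95.2 to 21000), and the ubiquitin-like Ubd 727 and 2 (226, interval 62.3 to 1870). These counts also enter the combined sample as the rounded mean of its libraries. The intervals are therefore approximate, and they cover counting error only. Saa3, an acute phase apolipoprotein, was at 57.6 and 38.4 CPM in IR+Gli1 and 0.606 and 0.0738 CPM in IR+Shh (141-fold lower, log2 -6.93 ± 0.55, adjusted p = 0.00564). Lcn2, the siderophore-binding lipocalin, is also made by the gland without treatment: it was at 148 and 75.1 CPM in NT, 53.3 and 56.0 CPM in IR+GFP, 1080 and 456 CPM in IR+Gli1, but 30.2 and 24.4 CPM in IR+Shh. It was 28.1-fold lower in IR+Shh than in IR+Gli1 (log2 -4.81 ± 0.64, adjusted p = 0.0158), and both IR+Shh samples were below the 8 others. Lbp, which binds bacterial lipopolysaccharide, was at 22.2 and 5.50 CPM in IR+Gli1 and 1.21 and 1.55 CPM in IR+Shh. Of 13 measured acute phase and antimicrobial genes, 6 were lower and 0 higher, where 4.98% of all genes were lower. The rest of the 15 largest falls were Slfn4, Ifit1bl1, Chil3, Cd300lf, Ly6c2, Chil1, Il1rn and Ms4a4c. Their levels ran from 9.37 CPM (Chil3) to 95.6 CPM (Slfn4) in IR+Gli1 1 and 2 and from 2.65 CPM (Cd300lf) to 18.7 CPM (Slfn4) in IR+Gli1 3, and were at most 1.47 CPM (Ms4a4c) in IR+Shh. In all 15 genes IR+Gli1 1 and 2 was the higher IR+Gli1 sample.

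**Figure D4:**
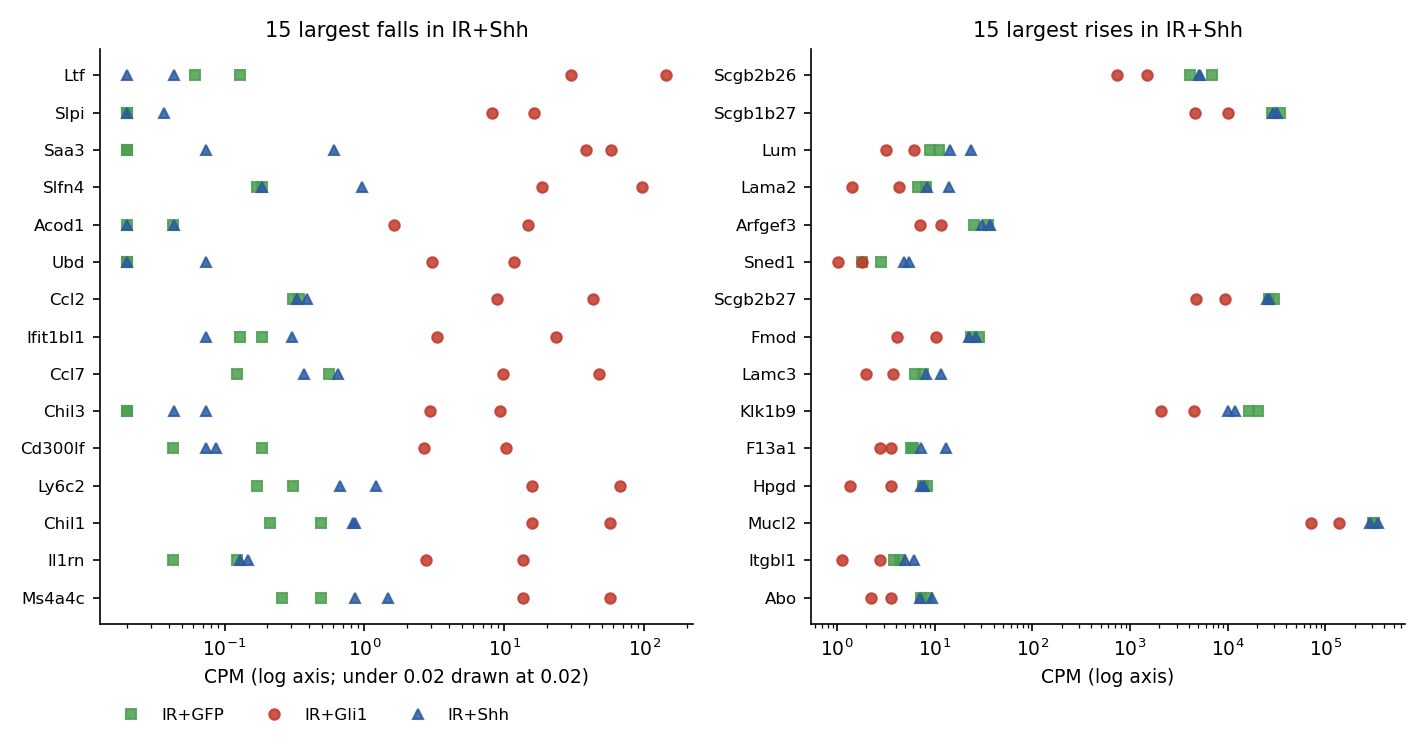
CPM (horizontal, log axis) of the 15 genes with the largest falls (left) and the 15 with the largest rises (right) in IR+Shh against IR+Gli1; each point is a sample of IR+GFP, IR+Gli1 or IR+Shh. On the left, IR+Gli1 alone is high, as for Saa3 at 57.6 and 38.4 CPM. On the right, IR+Gli1 is low and IR+Shh lies near IR+GFP for most genes, as for Mucl2.

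Genes of immune cells moved with these groups, and in whole-gland RNA fewer cells of a type and less RNA per cell cannot be told apart. Over all genes tested, 4.98% were lower in IR+Shh and 2.77% higher. Of 27 genes of macrophages and monocytes, 16 were lower in IR+Shh and 0 higher (median log2 -1.37), with summed levels of 279 and 308 CPM in IR+Shh, 743 and 435 CPM in IR+Gli1, and 199 and 287 CPM in IR+GFP. The scavenger receptor Msr1 was 14.5-fold lower (log2 -3.75 ± 0.48), the Fc receptor Fcgr4 10.6-fold, the sialic acid receptor Siglec1 2.61-fold and Ms4a7 2.93-fold. Of 22 T and NK cell genes 6 were lower (median log2 -1.35), with sums of 141 and 59.3 CPM in IR+Gli1 and 24.3 and 23.8 CPM in IR+Shh. Among these, the cytotoxic granule genes Gzmb and Prf1 were 10.6-fold and 5.16-fold lower, Gzma 5.52-fold, the chemokine Ccl5 8.80-fold and the cytokine receptor chain Il2rb 2.53-fold. Of 8 neutrophil genes Csf3r (6.27-fold) and Clec4d (208 reads and 1, ratio 129, counting interval 22.9 to 5130) were lower; their list summed to 33.7 and 7.00 CPM in IR+Gli1 and 1.95 and 2.10 CPM in IR+Shh, and the defining marker Ly6g had 0 reads in both groups. Of 4 lymph node genes 2 were lower, among them Ltb (6.69-fold), with the high endothelial marker Glycam1 at 0 reads in both groups. The part of these cells in the interferon, chemokine and antigen presentation differences was not tested. None of 6 B and plasma cell genes or 4 mast cell genes passed.

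Genes of tissue-resident and alternatively activated macrophages did not share the direction of the macrophage list. Of 22 genes 2, Mrc1 and F13a1, were higher in IR+Shh and 0 lower, where 2.77% of all genes were higher. The median log2 was 0.78 (0.16 per total gene reads, with 3 higher and 2 lower). F13a1, the coagulation factor XIII subunit of resident macrophages, was at 7.28 and 12.9 CPM in IR+Shh and 2.72 and 3.56 CPM in IR+Gli1 (3.22-fold, log2 1.68 ± 0.26, adjusted p = 0.0126). The difference between the 2 macrophage lists was not tested. The dendritic cell lectin Cd209a, with 11 reads in IR+Shh and 0 in IR+Gli1, was at least 5.90-fold higher, against a floor of 3 reads over the group. Its IR+Shh samples, at 0.0866 and 0.332 CPM, were below those of IR+GFP (0.341 and 0.369 CPM), IR and NT.

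Genes of the extracellular matrix were among the 15 largest rises in IR+Shh. Lum, which encodes the collagen-binding proteoglycan lumican, was at 14.3 and 23.4 CPM in IR+Shh and 3.19 and 6.13 CPM in IR+Gli1 (4.05-fold, log2 2.04 ± 0.40, adjusted p = 0.0283), and at 8.99 and 11.0 CPM in IR+GFP. Its relative Fmod (3.42-fold), the laminin chains Lama2 (3.90-fold) and Lamc3 (3.47-fold), Sned1 (3.69-fold) and Itgbl1 (2.84-fold) were among the 15 largest rises. Of 34 fibroblast and matrix genes 4 were higher and 0 lower, where 2.77% of all genes were higher: Lum, Col14a1 (2.67-fold), Postn (1.6-fold) and Sparc (1.42-fold). The median was 0.22, and -0.37 per total gene reads, where 4 were higher and 12 lower and the direction of Sparc turned (log2 -0.12). Fat cell genes moved with IR+Shh 2: Cfd was at 0 and 14.8 CPM, Car3 at 0.0866 and 13.1 CPM and Adipoq at 0 and 3.43 CPM in IR+Shh, and none exceeded 0.0395 CPM in IR+Gli1. The 13 markers summed to 14.7 and 67.0 CPM in IR+Shh and 19.3 and 20.6 CPM in IR+Gli1, where 6 of them had 0 reads. Their part in the stromal and resident macrophage rises was not tested. Among 12 measured adipocyte genes Pparg was the 1 that passed, and it was lower in IR+Shh (7.49-fold).

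Of 19 neurotrophic factor and receptor genes, 2 were higher in IR+Shh and 0 lower (median log2 0.28, and -0.31 per total gene reads, with 2 higher and 4 lower). Over all genes, 2.77% were higher. Igf1, insulin-like growth factor 1, was at 3.20 and 3.58 CPM in IR+Shh and 0.558 and 1.30 CPM in IR+Gli1 (3.64-fold, log2 1.84 ± 0.36, adjusted p = 0.0208), and at 1.15 and 1.54 CPM in IR+GFP. Gfra2, the receptor of neurturin on parasympathetic neurons, was at 1.91 and 3.36 CPM in IR+Shh and 0.432 and 0.830 CPM in IR+Gli1 (4.17-fold, log2 1.99 ± 0.45, adjusted p = 0.032). For both genes the IR+Shh samples were above the 8 others. The 5 genes Gli1, Dio2, Svil, Map3k5 and D630003M21Rik, were higher with both IR+Shh samples above and both IR+Gli1 samples within the range of the IR and IR+GFP samples; all but Gli1 were named after their values were seen, and per total gene reads the log2 differences of Svil and Map3k5 were -0.21 and -0.18. Of these, Dio2, the deiodinase that activates thyroid hormone, was at 1.52 and 1.25 CPM in IR+Shh and 0.468 and 0.435 CPM in IR+Gli1.

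Several secretory products were higher in IR+Shh, where 2.77% of all genes tested were higher. Mucl2, the most abundant gene, was at 345000 and 286000 CPM in IR+Shh and 71900 and 137000 CPM in IR+Gli1 (3.02-fold, log2 1.59 ± 0.35, adjusted p = 0.0283), beside 319000 and 307000 CPM in IR+GFP. All 3 measured secretoglobins were higher: Scgb2b26 4.64-fold (log2 2.22 ± 0.39), Scgb1b27 4.18-fold (2.06 ± 0.35) and Scgb2b27 3.64-fold (1.86 ± 0.32). Of 14 granular tubule kallikreins 2 passed, both higher, with a median log2 of 1.14. Klk1b9 was at 10100 and 12000 CPM in IR+Shh and 2080 and 4550 CPM in IR+Gli1 (3.32-fold, log2 1.73 ± 0.36, adjusted p = 0.0264), and at 20500 and 16600 CPM in IR+GFP, so that IR+Shh lay between the other 2 groups. Klk1b11 was 2.21-fold higher. The kallikreins and the secretoglobins are close copies of one another, and reads with several alignments were not counted, so the level of a single member is uncertain. Of 16 tubule growth factors and secretory proteins Prss12 passed (3.84-fold higher). Bhlha15, the transcription factor of secretory acinar cells, was at 267 and 295 CPM in IR+Shh and 100 and 173 CPM in IR+Gli1 (2.06-fold, log2 1.04 ± 0.21, adjusted p = 0.0231), and Amy1 was 1.65-fold higher. These were the 2 of 17 acinar genes that passed; of 31 fluid secretion genes the chloride importer Slc12a2 (1.63-fold) and Plcb4 (1.56-fold) were higher. The medians of both acinar lists were above 0 with TMM (0.25 and 0.12) and below 0 per total gene reads (-0.35 and -0.51), where 1 of the 17 acinar genes was higher and 5 lower, and 0 of the 31 fluid secretion genes were higher and 17 lower. Of the tubule growth factor list, 2 were then higher and 4 lower. Of the remaining large rises, Abo, Hpgd and Arfgef3 were 2.83-fold, 3.05-fold and 3.63-fold higher.

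In the groups that follow, members were higher with TMM and none was per total gene reads, where 4 of the protein folding genes and 4 of the clock genes were lower. Of 33 genes of protein folding in the endoplasmic reticulum, 8 were higher and 1 was lower (median log2 0.47, -0.14 per total gene reads). Over all genes, 2.77% were higher with TMM. The chaperone Dnajb9 was at 50 and 56.3 CPM in IR+Shh and 26.1 and 27.3 CPM in IR+Gli1 (log2 0.99 ± 0.12, adjusted p = 0.00678), and Ero1lb (log2 0.93 ± 0.18), Ssr3 (0.64 ± 0.14) and Ostc (0.51 ± 0.12, but -0.13 per total gene reads) were higher; the stress factor Ddit3 was lower (-0.90 ± 0.16). Of 12 mitochondrially encoded genes 3 were higher, mt-Co3, mt-Nd6 and mt-Atp6, by 1.62-fold to 1.77-fold. Of 19 clock genes 4 were higher: Nfil3 and Rora, and Tef and Nr1d2, whose log2 differences of 0.61 and 0.55 became -0.02 and -0.09 per total gene reads. Nfil3 was at 11.7 and 16.6 CPM in IR+Shh, 7.51 and 7.12 CPM in IR+Gli1 and 4.80 to 6.30 CPM in the 4 IR and IR+GFP samples (log2 0.94 ± 0.21, adjusted p = 0.0315). In NT it was at 17.3 and 12.4 CPM, so that IR+Shh overlapped the untreated glands.

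**Figure D5:**
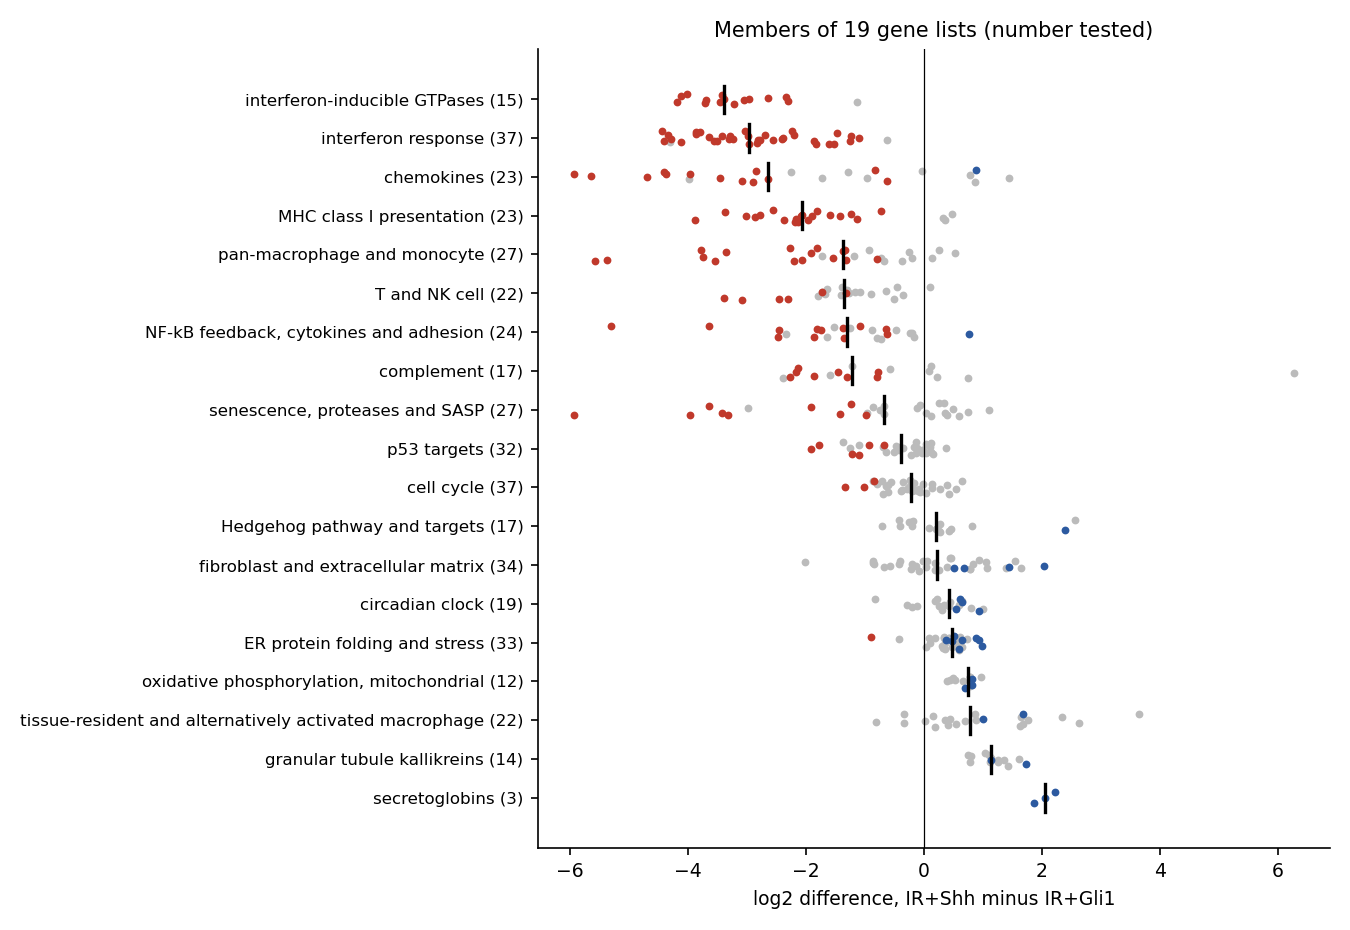
Log2 difference between IR+Shh and IR+Gli1 (horizontal) of each tested member of 19 gene lists, with the number tested in brackets; points are genes, red where lower in IR+Shh, blue where higher, grey where the test was not passed, and black bars are medians. Interferon lists lie wholly below 0 (medians -3.39 and -2.97), and kallikreins and secretoglobins wholly above (1.14 and 2.06).

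Some p53 targets and senescence genes were among the lower genes. Over all genes tested, 4.98% were lower and 2.77% higher. Of 32 p53 targets 6 were lower in IR+Shh and 0 higher (median log2 -0.38). The gene of the p21 cell cycle inhibitor, Cdkn1a, was at 1.17 and 1.40 CPM in NT, 22.3 and 24.0 CPM in IR, 125 and 67.6 CPM in IR+Gli1, and 23.1 and 27.5 CPM in IR+Shh. It was 3.80-fold lower in IR+Shh than in IR+Gli1 (log2 -1.92 ± 0.30, adjusted p = 0.0173), and the IR+Shh samples overlapped those of IR and IR+GFP. Psrc1 (3.46-fold), Plk3 (2.43-fold), Phlda3 (1.90-fold) and Bax (1.58-fold) were lower as well. Of 27 senescence, protease and secretory phenotype genes 9 were lower, including Mmp3, Ccl2, Tnf, the protease inhibitor Timp1 (11.6-fold) and the urokinase Plau (1.97-fold). Not all of these genes were higher in IR than in NT. Both IR samples were above both NT samples for Cdkn1a, Psrc1, Phlda3 and Bax. Both were below for Tnf, Timp1 and Plk3 (1.25 and 1.34 CPM in NT, 0.916 and 0.812 CPM in IR). The samples of Mmp3, Ccl2 and Plau overlapped. IR was not tested against NT. Of 37 cell cycle genes 3 were lower, not far from the share over all genes. They were the replication factors Mcm5 (2.56-fold) and Mcm3 (2.03-fold) and the cyclin Ccnd2 (1.79-fold). Of 33 DNA repair genes the damage kinase Atm alone passed, 1.54-fold higher, which is near the share over all genes. Its value per total gene reads was -0.01 on the log2 scale.

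Epithelial and stress genes showed small numbers of calls, where 4.98% of all genes were lower and 2.77% higher. The duct genes Slc5a5, the iodide transporter (2.23-fold), Cldn4 (2.02-fold) and Ascl3, the ionocyte factor (1.49-fold), were lower among 21, and the keratins Krt17 (2.46-fold) and Krt8 (1.58-fold) among 28 basal and progenitor genes. Of 24 immediate early genes Atf3, Junb and Klf6 were lower, by 3.70-fold, 2.49-fold and 1.49-fold. Of 26 antioxidant genes Hmox1 (2.31-fold) and Gsr (1.55-fold) were lower and Gclc (1.74-fold) and Prdx6 (1.37-fold) higher; per total gene reads Prdx6 turned (log2 -0.19). Rps19 and Rps20 were lower among 28 ribosomal protein genes, by 1.45-fold and 1.63-fold, Ndufa1 was higher among 41 nuclear genes of oxidative phosphorylation (1.46-fold, but log2 -0.07 per total gene reads), and the muscle gene Mb was lower among 7 (9.58-fold). No member of the lists of cholesterol synthesis (26 tested), endothelium (22), nerve and Schwann cells (14), sublingual gland (7) or erythroid cells (7) passed. Per total gene reads, where 8027 of all genes were lower, so were 10 of the cholesterol genes, 16 endothelial and 4 nerve genes, 14 duct, 16 basal, 17 antioxidant, 27 ribosomal protein and 39 nuclear oxidative phosphorylation genes. Plvap, among the most abundant endothelial genes, was at 10.3 and 9.52 CPM in IR+Shh and 15 and 14.2 CPM in IR+Gli1 (log2 -0.56 ± 0.20, adjusted p = 0.116).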

How the data were processed

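Libraries were made from 1 ug of total RNA with an Illumina TruSeq RNA kit, per the labels' protocols. The authors deposited a table of raw counts of reads per Ensembl gene for each library. The submitters' processing notes name DESeq2, HTSeq 0.10.0, TopHat2 2.0.13 and Bowtie 0.12.2, with mm10 and GRCm38 as builds. The strand mode and the annotation release are not given in the sources used here. The deposited tables also count reads assigned to no gene (6.98% to 13.9% of all), reads with several alignments among them; these counts were not tested. Strand is not stated, so overlapping and antisense genes cannot be told apart. Symbols and coordinates came from GENCODE vM21 (96.0% of 39179 genes). The gene lists, the rule for named genes and the comparison itself were chosen with earlier results of these data known.

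Libraries with a mean chi-square per gene under 1, over genes with at least 20 reads in the pair, were combined by the rounded mean of their counts. Reads given for a group and the counting intervals were taken from these combined counts, and reads given for a library from the library itself. The 10 samples of all 5 groups were filtered with filterByExpr, scaled with TMM and fitted in edgeR 4.0.16 (R 4.3.3; robust quasi-likelihood, 1 mean per group, 5 residual degrees of freedom, common biological coefficient of variation 0.19). All tests are two-sided. Benjamini-Hochberg adjustment ran over the 14304 genes tested, and the threshold was 0.05. Log2 differences use a prior count of 2, and fold differences are ratios of mean CPM. The value after ± is the absolute log2 difference divided by the square root of its quasi-likelihood F statistic. It stands in for a standard error and is approximate, most of all for genes with few reads in a group. Named genes were Gli1, Shh, Mmp3 and Mrc1, the 15 largest rises and falls whose groups did not overlap and whose higher group averaged 5 CPM or more, up to 5 passing members of each list by smallest adjusted p (up to 2 by level where none passed), and Hedgehog genes of at least 0.5 CPM; gene models without a name were passed over, and further genes are marked where named, and some genes the rule names are not reported here. On simulated counts for IR+Shh against IR+Gli1 with 200 changed genes among 14304, 58% of 2-fold and 81% of 4-fold changes were recovered, and 4.14% of calls were not among the changed genes. The changed genes were drawn from genes above a minimum mean count, and all other genes were equal between the groups. The difference in composition between IR+Gli1 and IR+Shh was not simulated, so these shares are not error rates of the calls given here. Alternatives were DESeq2 1.42.0, limma-voom (limma 3.58.1), other scalings and filters, uncombined libraries, and leaving out samples. Those chosen after seeing the data were leaving out IR+GFP samples, leaving out IR+GFP 3 with IR+Gli1 3, a replicate block on the combined IR+GFP and IR+Gli1 samples, and protein-coding genes alone. For IR+Shh with IR+Gli1, the deviations of same-numbered libraries from their group means had r of -0.0128 to -0.0042. The near-identical libraries are 1 and 3 in IR+Shh but 1 and 2 in IR+Gli1. With 2 samples in each group, these values cannot decide whether library numbers pair the groups. For IR+GFP with IR+Gli1 r was 0.535 to 0.598, but libraries 1 and 2 are near-identical in both groups, so these values rest on 2 pairs of combined samples, and the fit was kept unpaired.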

Additional observations from a re-analysis of the deposited data

How the results depend on the processing

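The count of genes that differed between IR+Shh and IR+Gli1 (1109) moved by over 1.5 times in several fits: 6065 with the 15 libraries as separate samples, 2403 with IR+GFP 3 and IR+Gli1 3 both left out, 2632 with no filter on low counts, 9 with the compared groups alone and 8112 per total gene reads. Leaving out each sample in turn gave 0 to 2288. For IR+Shh against IR+GFP (0 genes) the same settings gave 538, 2, 439 and 24, and DESeq2 gave 34. For IR+Gli1 against IR+GFP (2008 genes) the count was 6518 with separate libraries, 1 with the compared groups alone and 9745 per total gene reads, and 91 to 2997 with a sample left out. Members of the lists that differed numbered 207, and 533, 351, 390, 6 and 512 in those fits, with 0 to 335 when a sample was left out. Fitting the libraries separately counts near-identical libraries as replicates. The cause of the other changes was not tested.

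Of 137 genes named here that passed, DESeq2 kept all but 2, limma-voom all but 26 and upper-quartile scaling all but 5, with no change of sign. Without IR+Shh 2 all 137 lost the call. Per total gene reads, the mean Gli1 level of IR+Gli1 was 0.919 CPM in place of 0.615, and the log2 difference changed sign for Rab34 (-0.57), Smo (-0.44), Cdon (-0.38), Disp1 (-0.33), Gli2 (-0.31), Svil (-0.21), Ptch1 (-0.19), Prdx6 (-0.19), Map3k5 (-0.18), Igfbp6 (-0.16), Ostc (-0.13), Sparc (-0.12), Nr1d2 (-0.09), Ndufa1 (-0.07), Tef (-0.02) and Atm (-0.01). With a sample left out, Gli2 ranged from -0.12 to 0.56 and Gli3 from -0.62 to 0.11.

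With the library number as a replicate block, fitted on 15 separate libraries, 6092 genes differed between IR+Shh and IR+Gli1, 433 between IR+Shh and IR+GFP, 6495 between IR+Gli1 and IR+GFP, and 533 list members in the first of these. With a replicate block on the combined samples of IR+GFP and IR+Gli1, 2424 genes differed between them, and 1983 of the 2008 calls were kept. The labels do not say that a number pairs libraries. Depth limits genes under 1 CPM in both compared groups, such as Gli3, whose values rest on few reads.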
